A study of Mus musculus with 6 samples.

Results

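The genes of cytochrome P450 families 1 to 4 were examined in the livers of mice lacking Vps15. The members were the protein-coding genes whose symbol begins with Cyp, a family number from 1 to 4, a subfamily letter and a gene number, after the Ensembl identifiers of the deposited table had been matched to GENCODE M21 (GRCm38). The rule used no measured value and gave 80 of the 56305 genes in the table. These were 3 genes of family 1, 48 of family 2, 9 of family 3 and 20 of family 4. Another 30 symbols of the same form belonged to pseudogenes and other genes that are not protein-coding and were left out.

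Poly(A)-enriched RNA was sequenced from the livers of 5-week-old male mice, fed ad libitum and collected at Zeitgeber time 6 (ZT6, hours after lights on). The 3 Vps15LKO livers came from AlbCre+;Vps15 f/f mice, in which Cre recombinase is driven by the albumin promoter and removes Vps15, the regulatory subunit of class 3 PI3K, mainly from hepatocytes, so that other cells of the liver may keep the gene. The 3 control livers were labelled WT, and their floxed and Cre alleles are not given in the sources used here. The livers were labelled as separate replicates and nothing in the labels ties a replicate to a litter, so the p-values measure the spread between these 3 livers of each genotype.

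P450 enzymes are heme proteins of the endoplasmic reticulum that add oxygen to their substrates with electrons passed on by P450 oxidoreductase. Families 1 to 4 hold most of the enzymes that oxidise drugs, toxins, steroids, arachidonic acid and fatty acids, and hepatocytes are their main site of expression. Their transcription is controlled by ligand-sensing factors (the aryl hydrocarbon receptor for family 1, CAR and PXR for the 2b, 2c and 3a genes, PPARalpha for the 4a genes), by liver-enriched factors such as HNF4alpha, and in mice by the sex-specific pattern of growth hormone secretion. Many of the genes stand in tandem clusters of closely related copies.

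Most of the P450 genes fell in the Vps15LKO livers, and a small group rose. A gene was tested where 3 or more of the 6 livers reached 20 normalized counts. Among the 61 members that did so, 46 (75.4%) were lower and 8 (13.1%) were higher in Vps15LKO, and 7 did not pass the test. Calls were made with limma on log2(normalized count + 1), with Benjamini-Hochberg adjustment over the 15430 genes tested, at an adjusted p below 0.05 and a fold of at least 1.2. Of all genes tested, 33% were called lower and 33.5% were called higher. The median log2 fold change (Vps15LKO minus WT) was -1.99 over the members and -0.02 over all genes tested. At least 4-fold lower values were called for 29 members (47.5%), against 3.51% of all genes, and 18 members were at least 8-fold lower. The called falls ranged from -6.92 in Cyp4a12a to -0.44 in Cyp2j6 on the log2 scale. In each of the 46 lower members all 3 Vps15LKO values lay below all 3 WT values, and in each of the 8 higher members they lay above, whereas 36.8% of all genes tested were separated downwards and 36.4% upwards. Only 1 member passed the filter through the WT livers alone (Cyp2d12) and only 1 through the Vps15LKO livers alone (Cyp4f18), so that both had to differ to be tested. Without them, 45 of 59 members were lower and 7 higher.

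**Figure D1:**
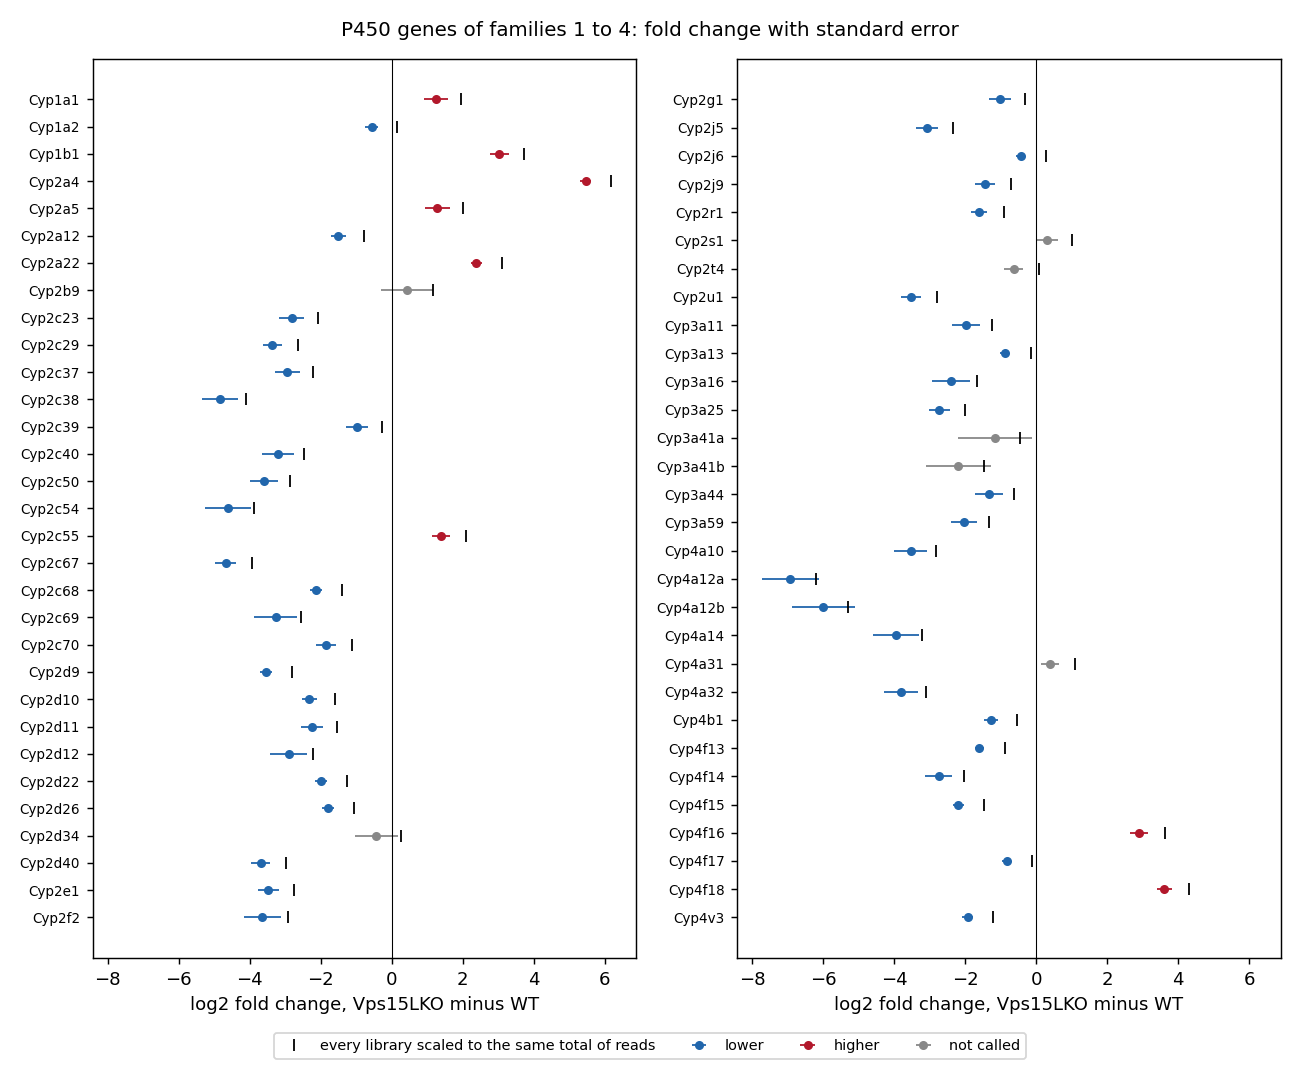
Log2 fold change (Vps15LKO minus WT, x axis) of the 61 tested P450 genes, ordered by subfamily, with bars for the standard error of the limma fit and colours for the call. Black ticks give the same difference when every library is scaled to the same total of reads. Of the 8 genes called higher, 3 belong to Cyp2a and 2 to Cyp4f, and 46 genes are called lower.

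The scale of the deposited values bears on these counts. The authors' size factors were 0.742 to 0.801 for the WT libraries and 1.23 to 1.41 for the Vps15LKO libraries, although the reads on genes were alike (16137093 to 18110223 per library). When every library was instead scaled to the same total of reads, the median of all genes moved up by 0.72 on the log2 scale, 11.1% of all genes were called lower and 66.7% higher. The P450 members then gave 39 lower, 10 higher and 12 not called, with a median of -1.26 against 0.70 over all genes. Among members called under the deposited scaling, the calls of Cyp1a2, Cyp2c39, Cyp2g1, Cyp2j6, Cyp3a13, Cyp3a44 and Cyp4f17 were lost on that scale, and the directions of Cyp1a2 (log2 fold change 0.16) and Cyp2j6 (0.29) turned. Quantile normalization, which gives all libraries the same distribution of values, moved 27 of the 61 members by over 1.5 times, and 24.3% of all genes. The differences were then smaller in size for Cyp2c23 (-2.03), Cyp2c29 (-2.53), Cyp2c50 (-2.84), Cyp2c70 (-1.11), Cyp2d9 (-2.66), Cyp2d10 (-1.43), Cyp2j5 (-2.37), Cyp3a25 (-2.01) and Cyp4v3 (-1.15). They were larger for Cyp2a4 (6.09), Cyp2a5 (2.57), Cyp2c39 (-1.92), Cyp2d11 (-3.03) and Cyp2d12 (-4.23), and other genes moved as given below.

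The tissue of the 2 genotypes also differed in its cell type markers. Of 13 hepatocyte markers tested, 11 were lower and 0 higher in Vps15LKO, and the sum of their normalized counts was 3160543 to 3594342 in WT against 940585 to 1381847 in Vps15LKO. All 8 cholangiocyte markers tested were higher (sums 1283 to 1452 in WT against 12652 to 24207 in Vps15LKO), as were all 11 stellate cell and fibroblast markers (7904 to 8391 in WT against 33717 to 39578 in Vps15LKO), 10 of 13 macrophage markers (11873 to 13830.0 in WT against 38005 to 42229.9 in Vps15LKO) and 8 of 10 lymphocyte and neutrophil markers (163 to 175 in WT against 790.1 to 951 in Vps15LKO). Of 9 endothelial markers, 4 were lower and 4 higher, and 0 lower and 6 higher when libraries were scaled to the same total of reads. The neutrophil marker Ly6g was at 0 reads in the WT livers. Without the genes that entered the test through Vps15LKO alone, 7 of 7 cholangiocyte markers and 2 of 4 lymphocyte and neutrophil markers were higher. In bulk tissue, fewer hepatocytes and less P450 mRNA per hepatocyte cannot be told apart, and the part of cell type in the P450 values was not tested. Pik3r4, the gene that encodes Vps15, stood at 508, 573 and 459.7 normalized counts in WT and 341, 362 and 355 in Vps15LKO (log2 fold change -0.54 ± 0.11, adjusted p = 0.00207). Scaled to the same total of reads its difference was 0.19 and not called, and reads outside the deleted exons and from cells other than hepatocytes count towards these values.

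The P450 transcripts took up a smaller share of the liver's reads in Vps15LKO, and the make-up of that share changed. The 80 members held 3.20%, 3.29% and 2.54% of the reads on genes in WT (3.01% ± 0.41, SD, n = 3) against 1.34%, 1.49% and 1.10% in Vps15LKO (1.31% ± 0.19, SD, n = 3). The groups did not overlap, and the exact permutation test, two-sided, gave p = 0.1, the smallest value that 3 against 3 livers allow. Without Cyp2a4 and Cyp2a5 the shares were 2.91% ± 0.37 and 0.84% ± 0.21. To compare genes, reads were divided by exon length and given as a percentage of the length-corrected P450 pool. Cyp2e1, which oxidises ethanol and other small molecules, was the most abundant member in WT, with 29.7% ± 1.34 of the pool, and held 9.77% ± 1.58 in Vps15LKO. The 4 Cyp2a genes, which hydroxylate coumarin and steroids, held 5.49% ± 1.11 of the pool in WT and 45.4% ± 6.98 in Vps15LKO, and Cyp2a5 alone went from 3.70% ± 1.32 to 31.4% ± 5.81. Cyp2a5 was thus the most abundant P450 transcript of families 1 to 4 per length in each of the 3 Vps15LKO livers. Cyp2c (15.7% ± 0.62 to 7.67% ± 1.35), Cyp2d (13.9% ± 1.15 to 9.80% ± 0.36), Cyp2f2 (10.2% ± 2.19 to 3.32% ± 1.89) and Cyp4a (4.72% ± 0.35 to 1.43% ± 0.81) took smaller shares. Cyp1a2 took a larger one (3.37% ± 0.23 to 8.23% ± 0.59). For each of these genes and subfamilies the 2 groups did not overlap (exact permutation p = 0.1). The share of Cyp3a was 11.2% ± 2.69 in WT and 9.64% ± 1.53 in Vps15LKO and overlapped (exact permutation p = 0.5). Shares of a pool add up to 100%, so a larger share of Cyp2a leaves less for the others. In the pool without the Cyp2a genes, a setting added after the data were seen, Cyp2d went from 14.7% ± 1.05 to 18.1% ± 2.01 and Cyp3a from 11.9% ± 2.91 to 17.6% ± 0.56, both larger in Vps15LKO, while Cyp2e1 (31.5% ± 1.79 to 17.9% ± 1.24), Cyp2c (16.7% ± 0.56 to 14.0% ± 0.66), Cyp2f2 (10.8% ± 2.20 to 5.88% ± 2.77) and Cyp4a (4.996% ± 0.31 to 2.54% ± 1.10) still took smaller shares.

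**Figure D2:**
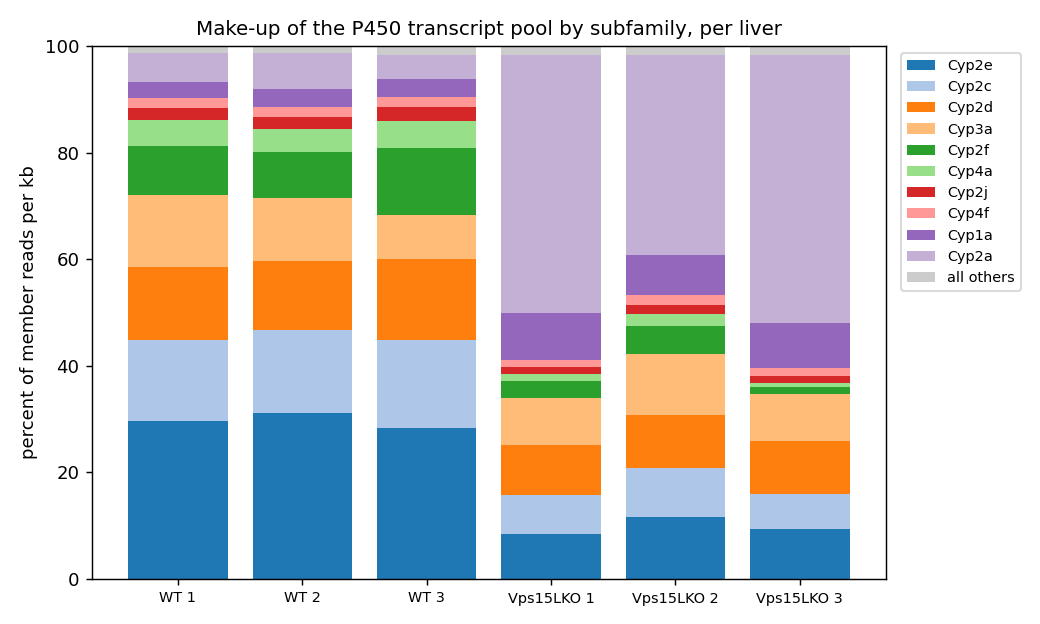
Make-up of the P450 transcript pool in each of the 6 livers, as percentages of the member reads per kilobase of exon, stacked by subfamily (y axis from 0 to 100%). Cyp2a takes 4.44% to 6.65% of the pool in the 3 WT livers and 37.4% to 50.3% in the 3 Vps15LKO livers, and Cyp2e shrinks from at least 28.4% to at most 11.5%.

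Family 1 holds the classical target genes of the aryl hydrocarbon receptor, of which Cyp1a1 and Cyp1b1 were called higher, while the direction of Cyp1a2 depended on the scaling. Cyp1a2, the constitutive hepatic enzyme that metabolises caffeine and aromatic amines, had 18864, 21434 and 16183 normalized counts in WT and 13936, 13819 and 10376 in Vps15LKO. The groups did not overlap and the gene was called lower (log2 fold change -0.57 ± 0.18, adjusted p = 0.0207), but the direction turned when libraries were scaled to the same total of reads (0.16, not called) and under quantile normalization (0.59, called higher). Its call was also lost without Vps15LKO 3 (-0.43), without WT 1 (-0.56) or without WT 2 (-0.47). Cyp1a1, the inducible enzyme that oxidises polycyclic aromatic hydrocarbons, stood near the lower limit of the measurement, at 34.5, 27.5 and 13.5 normalized counts in WT and 67.2, 61.6 and 44.6 in Vps15LKO (log2 fold change 1.24 ± 0.35, adjusted p = 0.012), and its call was lost under quantile normalization (0.55). Cyp1b1, which acts on estrogens and is known mainly from tissues and cells other than hepatocytes, rose 8.12-fold from 17.2, 23.7 and 16.2 to 163, 114 and 219 (log2 fold change 3.02 ± 0.27, adjusted p = 2.35e-05). Its WT values, from 13, 19 and 12 reads, also stood near the lower limit of the measurement. Vps15LKO 3 had the highest Cyp1b1 value, and also the highest summed levels of the cholangiocyte and of the stellate cell and fibroblast markers, and their part in this rise was not tested.

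The Ahr transcript itself, which encodes the receptor, was not called (log2 fold change -0.04 ± 0.10, adjusted p = 0.702), but was called higher when libraries were scaled to the same total of reads (0.68). Of 4 other target genes tested, Nqo1, a quinone reductase, was higher (3.59 on the log2 scale), as were the glutathione transferase Gsta1 (6.16) and Tiparp (0.69), a repressor of the receptor. The glucuronosyltransferase gene Ugt1a6a was lower (-1.33), and this gene shares exons with other genes of the Ugt1a cluster. Nqo1 and Gsta1 are also known targets of NRF2, whose transcript Nfe2l2 rose (log2 fold change 0.63 ± 0.10, adjusted p = 0.000428). The part of NRF2 in the values of Nqo1 and Gsta1 was not tested.

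The Cyp2a genes showed the largest rise and a split between closely related copies. Cyp2a4 encodes a steroid hydroxylase known for higher expression in female mouse liver. WT livers held 325, 363 and 357 normalized counts of it, and Vps15LKO livers held 19146, 15367 and 12222. The gene was 43.9-fold higher in Vps15LKO (log2 fold change 5.46 ± 0.16, adjusted p = 1.44e-07), with every Vps15LKO liver far above every WT liver. Cyp2a5, the coumarin hydroxylase of mouse liver, had 23674, 31106 and 11182 in WT and 53495, 47538 and 46434 in Vps15LKO (log2 fold change 1.28 ± 0.35, adjusted p = 0.0111). The 3 Vps15LKO values of Cyp2a5 were close to each other, whereas WT 3 lay well below WT 1 and WT 2.

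Cyp2a4 (chr7:26307169-26315088) and Cyp2a5 (chr7:26835305-26843548) are near copies on chromosome 7. Their predicted proteins, each of 494 residues, are 97.6% identical and differ at 12 positions. Of all 100-base windows of the longest transcript, 11.2% of Cyp2a4 and 14.4% of Cyp2a5 occur unchanged in another gene, so most fragments of this length hold at least 1 base that sets the copies apart. Cyp2a4 gave 1.35%, 1.16% and 3.10% of the reads of both copies in WT and 26.4%, 24.4% and 20.8% in Vps15LKO. The shares of the 2 genotypes did not overlap (exact permutation p = 0.1). Summed over both copies, the values still rose (log2 fold change 1.65, adjusted p = 0.00316).

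The promoters of the copies are shown because log2 fold changes of 5.46 and 1.28 were measured for genes with almost the same sequence in front of them. The windows run from 250 bases before to 50 bases after the annotated start (RefSeq, GRCm38.p6, plus strand, 5′ to 3′), at chr7:26306942-26307241 for Cyp2a4 and chr7:26835089-26835388 for Cyp2a5, and capitals mark the bases that differ or lie in 1 copy only. Of the aligned bases, 294 are identical and 5 differ (98.3% identity).
Cyp2a4: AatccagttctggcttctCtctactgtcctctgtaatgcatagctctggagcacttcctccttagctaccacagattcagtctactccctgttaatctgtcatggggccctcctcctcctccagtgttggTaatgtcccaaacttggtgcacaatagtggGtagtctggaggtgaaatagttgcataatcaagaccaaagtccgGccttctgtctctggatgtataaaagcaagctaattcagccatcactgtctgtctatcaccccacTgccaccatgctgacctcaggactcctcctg
Cyp2a5: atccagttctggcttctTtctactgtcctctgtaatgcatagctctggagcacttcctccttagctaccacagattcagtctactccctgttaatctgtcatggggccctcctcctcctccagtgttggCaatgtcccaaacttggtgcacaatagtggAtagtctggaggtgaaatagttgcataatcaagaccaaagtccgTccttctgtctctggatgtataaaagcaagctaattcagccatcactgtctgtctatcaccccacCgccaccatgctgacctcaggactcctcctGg

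The other pair of Cyp2a copies moved in opposite directions. Cyp2a12, a hydroxylase of steroids and bile acids in mouse liver, fell from 15774, 16599 and 16079 normalized counts to 6247, 7333 and 3993 (log2 fold change -1.51 ± 0.21, adjusted p = 0.000287; -0.54 under quantile normalization). Cyp2a22 rose from 66.3, 66.2 and 55.3 to 337, 387 and 272 (log2 fold change 2.38 ± 0.16, adjusted p = 6.56e-06), with no overlap in either gene. Their proteins are 94.3% identical, and only 4.08% of the windows of Cyp2a12 and 4.09% of those of Cyp2a22 are shared. Cyp2a12 was far the more abundant per length in WT, so that the sum of both copies was lower (-1.43). The promoter windows of this pair, chr7:27028840-27029139 on the plus strand and chr7:26939337-26939636 on the minus strand, are shown with the same marking for contrast. They agree at 262 aligned bases and differ at 27 (90.7% identity), and the 2 windows are shifted against each other at both ends.
Cyp2a12: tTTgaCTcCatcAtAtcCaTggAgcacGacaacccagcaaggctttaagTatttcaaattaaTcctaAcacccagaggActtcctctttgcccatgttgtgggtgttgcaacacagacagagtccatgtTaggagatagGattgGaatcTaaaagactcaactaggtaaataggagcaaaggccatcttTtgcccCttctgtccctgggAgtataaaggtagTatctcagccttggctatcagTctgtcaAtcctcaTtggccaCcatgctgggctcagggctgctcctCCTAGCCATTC
Cyp2a22: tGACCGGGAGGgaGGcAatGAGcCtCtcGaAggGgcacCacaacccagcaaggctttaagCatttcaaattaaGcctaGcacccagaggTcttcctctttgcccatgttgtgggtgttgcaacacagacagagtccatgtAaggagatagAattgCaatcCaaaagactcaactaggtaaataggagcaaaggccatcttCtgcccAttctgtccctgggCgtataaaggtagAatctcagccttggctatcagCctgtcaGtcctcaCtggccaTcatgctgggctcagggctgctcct

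**Figure D3:**
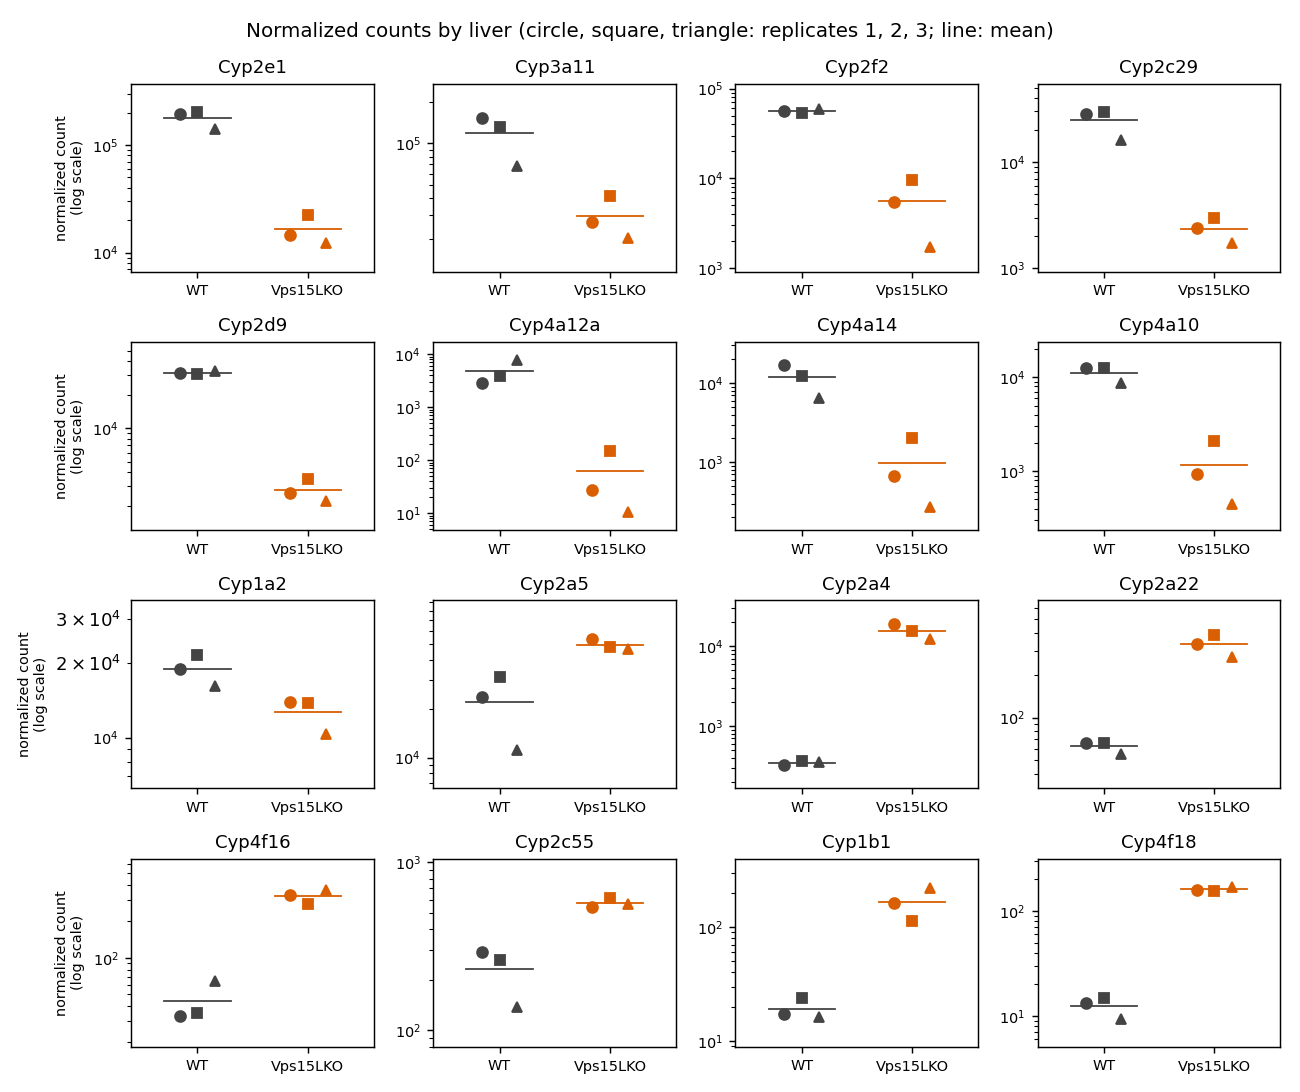
Normalized counts (y axis, log scale) of 16 P450 genes in the 3 WT and 3 Vps15LKO livers, with circles, squares and triangles for replicates 1, 2 and 3 and a line at each mean. In Cyp2a4, Cyp2a22, Cyp4f16, Cyp1b1 and Cyp4f18 the Vps15LKO livers lie above the WT livers by more than the spread of either group, whereas Cyp4a12a spreads from 10.6 to 147.5 within Vps15LKO.

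The Cyp2b genes, known for their induction by drugs, had few counts. Cyp2b9, a female-biased gene, was the only one of 5 members tested, with 739, 522 and 86.3 normalized counts in WT and 548, 596 and 249.7 in Vps15LKO, and was not called (log2 fold change 0.43 ± 0.72, adjusted p = 0.62). WT 3 set its direction, since the log2 fold change was -0.52 without that liver. Cyp2b10, the standard target gene of CAR, had 13, 13 and 6 reads in WT and 3, 4 and 1 in Vps15LKO, below the limit for testing.

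Almost all of Cyp2c fell. Of the 13 genes tested, which encode oxidases of drugs, retinoids and arachidonic acid, 12 were lower and 1 was higher. Cyp2c29 was the most abundant per length in WT, at 8065 ± 2467 normalized counts per kilobase, and had 774 ± 206 in Vps15LKO (SD, n = 3). In Vps15LKO the most abundant Cyp2c gene per length was Cyp2c70, at 1519 ± 309. Cyp2c29 fell 10.3-fold, from 28347, 29709 and 16002 normalized counts in WT to 2414, 2979 and 1719 (log2 fold change -3.36 ± 0.27, adjusted p = 1.49e-05). Cyp2c38 had 2034, 1857 and 569 in WT and 33.6, 79.4 and 32.5 in Vps15LKO and was 28.5-fold lower (log2 fold change -4.83 ± 0.51, adjusted p = 5.72e-05). WT 3 was the lowest of the WT livers in both genes, and without it the log2 fold change of Cyp2c38 was -5.42. Cyp2c67 fell 25.4-fold with close WT values, from 6279.7, 6051 and 5961 to 210.0, 415 and 156 (log2 fold change -4.67 ± 0.30, adjusted p = 4.67e-06). Cyp2c54 fell 24.4-fold, from 8535, 8835 and 4466 to 315, 768 and 94.8 (log2 fold change -4.61 ± 0.64, adjusted p = 0.000279). Its Vps15LKO values spread widely, and the log2 fold change was -5.32 without Vps15LKO 2 and -3.82 without Vps15LKO 3. Cyp2c37 (-2.94) and Cyp2c50 (-3.60), which with Cyp2c29 are known from pericentral hepatocytes, fell as well.

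The smallest falls of Cyp2c were those of Cyp2c70 (-1.85), the enzyme that makes muricholic acids in mice, and of Cyp2c39 (-0.98), a retinoic acid hydroxylase. Cyp2c39 had 57.02, 66.2 and 29.7 normalized counts in WT and 23.7, 26.7 and 21.9 in Vps15LKO, and its call was lost without Vps15LKO 1 (-0.97), Vps15LKO 3 (-0.91), WT 1 (-0.86) or WT 2 (-0.75). Cyp2c55, an arachidonic acid hydroxylase inducible through CAR and PXR, went the other way, from 293, 262 and 137 to 539, 609 and 567 (log2 fold change 1.38 ± 0.25, adjusted p = 0.00128), with no overlap. Cyp2c40 and Cyp2c69, with 44.1% and 36.3% of their transcript windows present in another gene, cannot be fully separated by short reads, and the sum of Cyp2c40, Cyp2c67, Cyp2c68 and Cyp2c69 was lower (-2.95).

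In Cyp2d, a group that oxidises many amine drugs, 7 of 8 members were lower and 0 were higher, or 6 of 7 without Cyp2d12. Cyp2d26 was the most abundant per length, at 13049 ± 1888 normalized counts per kilobase in WT and 3747 ± 543 in Vps15LKO, and fell 3.48-fold (log2 fold change -1.80 ± 0.17, adjusted p = 3.32e-05; -0.73 under quantile normalization). Cyp2d9, the male-biased testosterone hydroxylase, had 31467, 30825 and 32646 normalized counts in WT and 2612, 3484 and 2205 in Vps15LKO, and was 11.6-fold lower (log2 fold change -3.54 ± 0.17, adjusted p = 1.29e-06). The WT values of Cyp2d9 were close to each other and the Vps15LKO values lay far below them. Cyp2d40 fell 12.9-fold, from 1045, 1098 and 1128 to 77.1, 133 and 56.6 (log2 fold change -3.69 ± 0.26, adjusted p = 8.02e-06). Cyp2d10 (-2.32), Cyp2d11 (-2.25) and Cyp2d22 (-1.99) were lower too. Cyp2d12 had 53.04, 184 and 45.8 in WT and 8.4, 13.8 and 7.07 in Vps15LKO, entered the test only through its WT values, and has its log2 fold change of -2.90 given as a description (-2.28 without WT 2). Cyp2d34 had 15.9, 33.7 and 26.96 in WT against 35.9, 5.67 and 26.2 in Vps15LKO and was not called (log2 fold change -0.43 ± 0.61, adjusted p = 0.554), and its value was 0.32 without Vps15LKO 2, 0.26 with libraries scaled to the same total of reads and -1.68 under quantile normalization.

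Cyp2e1 and Cyp2f2 are the genes most often used to mark the pericentral and the periportal end of the liver lobule, and both fell. Cyp2e1 had 193292, 202093 and 141526 normalized counts in WT and 14611, 22606 and 12242 in Vps15LKO, 11.1-fold lower (log2 fold change -3.47 ± 0.31, adjusted p = 2.28e-05), and its log2 fold change was -2.32 under quantile normalization. Cyp2f2, which bioactivates naphthalene, had 56116, 52843 and 59392 in WT and 5414, 9547 and 1748 in Vps15LKO, 12.5-fold lower (log2 fold change -3.64 ± 0.51, adjusted p = 0.000293). The WT values of Cyp2f2 were close together, while its Vps15LKO values ran from the lowest in Vps15LKO 3 to the highest in Vps15LKO 2, and the log2 fold change was -2.96 without Vps15LKO 3 and -2.57 under quantile normalization. Of the 7 P450 genes listed as pericentral, 6 were lower (Cyp2e1, Cyp1a2, Cyp2c29, Cyp2c37, Cyp2c50 and Cyp3a11) and Cyp2a5 was higher, with the reversals of Cyp1a2 described above. The antisense gene Gm15883 covers 13.5% of the exon bases of Cyp2f2, and the strand setting of the read counting is not given in the sources used here.

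The smaller subfamilies of family 2 mostly fell. Cyp2j5, an epoxygenase of arachidonic acid, was the most abundant of the Cyp2j genes per length and fell 8.38-fold, from 14668, 14626 and 12373 to 1607, 2806 and 999 (log2 fold change -3.07 ± 0.32, adjusted p = 5.15e-05). Cyp2j9 was lower (-1.44), and Cyp2j6 showed the smallest call of all the lower members (-0.44), lost under scaling to the same total of reads and under quantile normalization (-0.11). Cyp2u1, a fatty acid hydroxylase, fell 11.5-fold, from 757, 734 and 1397 to 75.6, 111 and 59.4 (log2 fold change -3.52 ± 0.29, adjusted p = 1.59e-05), and shares 10.45% of its exon bases with a gene on the other strand. Cyp2r1, a vitamin D hydroxylase, fell from 297, 332 and 226 to 91.6, 119.9 and 69.3 (log2 fold change -1.61 ± 0.22, adjusted p = 0.000243). Cyp2g1, known from the olfactory mucosa, was lower (-1.02), but its call was lost without Vps15LKO 3 (-0.90), WT 1 (-0.77) or WT 2 (-0.87). Cyp2s1 (0.30, adjusted p = 0.401) and Cyp2t4 (-0.63, adjusted p = 0.0666) were not called. Cyp2s1 became a rise when libraries were scaled to the same total of reads (1.001) and had the opposite sign under quantile normalization (-0.70), and Cyp2t4 was called lower without Vps15LKO 3 (-0.88), under upper-quartile scaling (-0.72), under quantile normalization (-1.68) and without a mean-variance trend, but was at 0.076 when scaled to the same total of reads.

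In Cyp3a, the main drug-oxidising subfamily and the counterpart of human CYP3A4, 6 of 8 genes tested were lower and 0 were higher. Cyp3a11, the major adult form, had 153536, 131517 and 68418 normalized counts in WT and 26606, 40940.2 and 20505 in Vps15LKO, 3.95-fold lower (log2 fold change -1.98 ± 0.39, adjusted p = 0.00192). The WT values of Cyp3a11 spread more than those of most members, with WT 3 lowest, and under quantile normalization the difference was -0.54 and not called. Cyp3a25 fell from 16626, 15557 and 8968 to 2169, 2687 and 1354 (log2 fold change -2.73 ± 0.29, adjusted p = 6.66e-05). Cyp3a13, a form also abundant in the intestine, fell less, from 2929, 2935 and 2383 to 1550.2, 1610.2 and 1301 (log2 fold change -0.89 ± 0.12, adjusted p = 0.000274), and its call was lost when libraries were scaled to the same total of reads (-0.16). Cyp3a59 was lower (-2.04).

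The 4 female-biased genes of this subfamily had few counts. Cyp3a16 had 338, 439.7 and 79.5 normalized counts in WT and 39.7, 42.1 and 45.97 in Vps15LKO (log2 fold change -2.40 ± 0.54, adjusted p = 0.00413), and its log2 fold change was -3.15 without WT 3. Cyp3a44 fell from 162, 219 and 140.2 to 57.3, 132 and 39.6 (log2 fold change -1.33 ± 0.39, adjusted p = 0.0151), with Vps15LKO 2 close to the lowest WT value and the call lost without Vps15LKO 1 (-1.22) or WT 2 (-1.16). Cyp3a41a had 431, 89.9 and 21.6 in WT against 16.04, 124 and 36.1 in Vps15LKO. Cyp3a41b had 534, 698 and 57.96 in WT against 64.1, 131 and 25.5 in Vps15LKO, and the groups overlapped in both genes. Neither was called, with adjusted p = 0.346 and 0.0603 (limma, log2 fold changes -1.16 and -2.20), although Cyp3a41b was called lower by edgeR (-2.52) and DESeq2 (-2.55), without WT 3 (-3.32), without Vps15LKO 2 (-2.76) and under quantile normalization (-2.61). Leaving out 1 library at a time, Cyp3a41b was at -1.54 without WT 2 and -1.60 without Vps15LKO 3. Cyp3a41a ran from -0.08 without WT 1 and -0.50 without Vps15LKO 1 to -1.93 without Vps15LKO 2 and -2.21 without WT 3, and was at -1.94 under quantile normalization. These 2 genes encode the same protein and share 90.8% and 88.2% of their transcript windows, so the reads cannot be assigned between them with certainty.

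Family 4, whose members hydroxylate fatty acids and eicosanoids at the end of the chain, held the largest falls. Cyp4a12a and Cyp4a12b are male-biased genes that make the vasoactive lipid 20-HETE in mice. Cyp4a12a had 2903, 3809.7 and 7649 normalized counts in WT and 26.7, 147 and 10.6 in Vps15LKO, 121-fold lower (log2 fold change -6.92 ± 0.80, adjusted p = 9.78e-05). Cyp4a12b had 744, 844 and 2804 in WT and 16.04, 76.2 and 4.24 in Vps15LKO, 63.5-fold lower (log2 fold change -5.99 ± 0.89, adjusted p = 0.000386). The Vps15LKO values came from few reads, 35, 182 and 15 of Cyp4a12a and 21, 94 and 6 of Cyp4a12b. In both genes WT 3 was the highest of the WT livers and Vps15LKO 2 the highest of the Vps15LKO livers. The log2 fold change of Cyp4a12a was -6.27 by edgeR and -6.28 by DESeq2, and that of Cyp4a12b was -5.26 with a pseudocount of 10 and -6.63 under quantile normalization. Cyp4a12a was at -7.93 without Vps15LKO 2 and -6.10 without Vps15LKO 3 on the log2 scale, and Cyp4a12b was at -7.00, -5.06 and, without WT 3, -5.38. The copies are 97.8% identical as proteins and share about as many transcript windows in either direction (35.8% and 36.2%), and their sum was lower as well (-6.71).

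The Cyp4a genes inducible through PPARalpha, the fatty acid sensor of the liver, fell with 1 exception. Cyp4a14 had 16879, 12186 and 6578 normalized counts in WT and 661, 2040.4 and 272 in Vps15LKO, 15.4-fold lower (log2 fold change -3.95 ± 0.65, adjusted p = 0.00068), at -4.70 without Vps15LKO 2 and -3.25 without Vps15LKO 3. Cyp4a10, the most abundant Cyp4a gene per length in WT, fell 11.6-fold, from 12510.3, 12596 and 8697 to 930.1, 2109 and 446 (log2 fold change -3.54 ± 0.47, adjusted p = 0.000208). Cyp4a32 fell from 682, 618 and 662 to 59.6, 89.1 and 17.7 (log2 fold change -3.81 ± 0.48, adjusted p = 0.00016), at -3.15 without Vps15LKO 3. Vps15LKO 2 kept the highest and Vps15LKO 3 the lowest level of all 3 genes among the Vps15LKO livers. Cyp4a31, 94.5% identical to Cyp4a10 in its protein, had 309, 237 and 508 in WT against 454, 487 and 374 in Vps15LKO and was not called (log2 fold change 0.38 ± 0.25, adjusted p = 0.205), but was called higher without WT 3 (0.68) and with libraries scaled to the same total of reads (1.11). Of 12 other PPARalpha targets tested, 9 were lower, among them Fabp1, which carries fatty acids (-2.84), and 1 was higher, Pdk4, an inhibitor of glucose oxidation (2.52). With libraries scaled to the same total of reads these counts were 6 and 1. The Ppara transcript was lower (log2 fold change -1.99 ± 0.19, adjusted p = 3.52e-05).

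The Cyp4f genes, which inactivate leukotrienes and shorten vitamins E and K, were divided. Cyp4f14, the most abundant per length, fell 6.71-fold, from 8733, 7839 and 6852 to 1089.7, 2205 and 646 (log2 fold change -2.75 ± 0.37, adjusted p = 0.000225), and Cyp4f13 (-1.60), Cyp4f15 (-2.19) and Cyp4f17 (-0.84) were lower too. Cyp4f16 rose 7.47-fold, from 33.1, 34.97 and 64.7 to 331, 276 and 365 (log2 fold change 2.90 ± 0.25, adjusted p = 2.18e-05). Cyp4f18, a leukotriene B4 hydroxylase known from neutrophils and other myeloid cells, had 13.3, 14.99 and 9.44 in WT and 159.6, 155 and 169.7 in Vps15LKO. It entered the test only through its Vps15LKO values, so its log2 fold change of 3.60 is given as a description (2.93 with a pseudocount of 10 and 2.88 under quantile normalization). The 3 Vps15LKO values of Cyp4f18 lay close together, the macrophage and the lymphocyte and neutrophil markers rose in the same livers as given above, and their part in this difference was not tested. Cyp4f18 shares 9.76% of its exon bases with Zfp961 on the other strand. Cyp4v3, a hydroxylase of medium-chain fatty acids, fell 3.81-fold, from 11302, 12302 and 12353 to 3148, 3939 and 2502 (log2 fold change -1.93 ± 0.16, adjusted p = 1.91e-05), and Cyp4b1 fell from 409.7, 425 and 307 to 154, 201 and 122 (log2 fold change -1.27 ± 0.20, adjusted p = 0.000545).

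The sex-biased P450 genes moved in both directions. All 3 male-biased genes (Cyp2d9, Cyp4a12a and Cyp4a12b) were lower. Of 9 female-biased genes tested, 5 were lower (Cyp2c39, Cyp2c40, Cyp2c69, Cyp3a16 and Cyp3a44), 1 was higher (Cyp2a4) and 3 were not called (Cyp2b9, Cyp3a41a and Cyp3a41b). With libraries scaled to the same total of reads, 3 were lower and 1 higher. The untested Cyp2b13 had 3, 3 and 7 reads in WT and 32, 27 and 12 in Vps15LKO. Among factors known to act on sex-biased liver genes, Cux2, a female-specific repressor, had 13.3, 18.7 and 10.8 normalized counts in WT and 111, 60.8 and 51.6 in Vps15LKO, and since it entered the test only through its Vps15LKO values, these are given as a description. Stat5b, which relays the growth hormone signal, was lower (log2 fold change -0.73 ± 0.10, adjusted p = 0.000294; difference -0.01 when scaled to the same total of reads), and Bcl6, a male-biased repressor, was not called and varied widely within WT (1326, 261 and 2075 normalized counts).

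Livers of the same genotype differed more in the P450 genes than in the typical gene. Over the 52 members whose mean normalized count over the 6 livers reached 100, the median coefficient of variation was 19.3% in WT and 28.8% in Vps15LKO. Over all genes with such a mean it was 10.2% and 8.37%. Some of these members averaged under 100 in Vps15LKO, such as Cyp4a12b (32.2) and Cyp2c38 (48.5), where counting error adds more to the spread. Of the 46 members called lower, Vps15LKO 2 had the highest Vps15LKO value in 42 and Vps15LKO 3 the lowest in 43. Over all genes called lower these shares were 69.7% and 65%. The summed hepatocyte markers had the same order (1381847 in Vps15LKO 2, 1143513 in Vps15LKO 1 and 940585 in Vps15LKO 3), and the summed cholangiocyte markers had the reverse order (12652, 16175 and 24207). In WT, WT 3 had the lowest value in 33 of the 46 members, against 48.5% of all genes called lower. WT 3 had the lowest Cyp2b9, Cyp3a16, Cyp3a41a, Cyp3a41b, Cyp2c38 and Cyp3a11, and the highest Cyp4a12a, Cyp4a12b, Cyp2u1 and Cyp2c70.

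**Figure D4:**
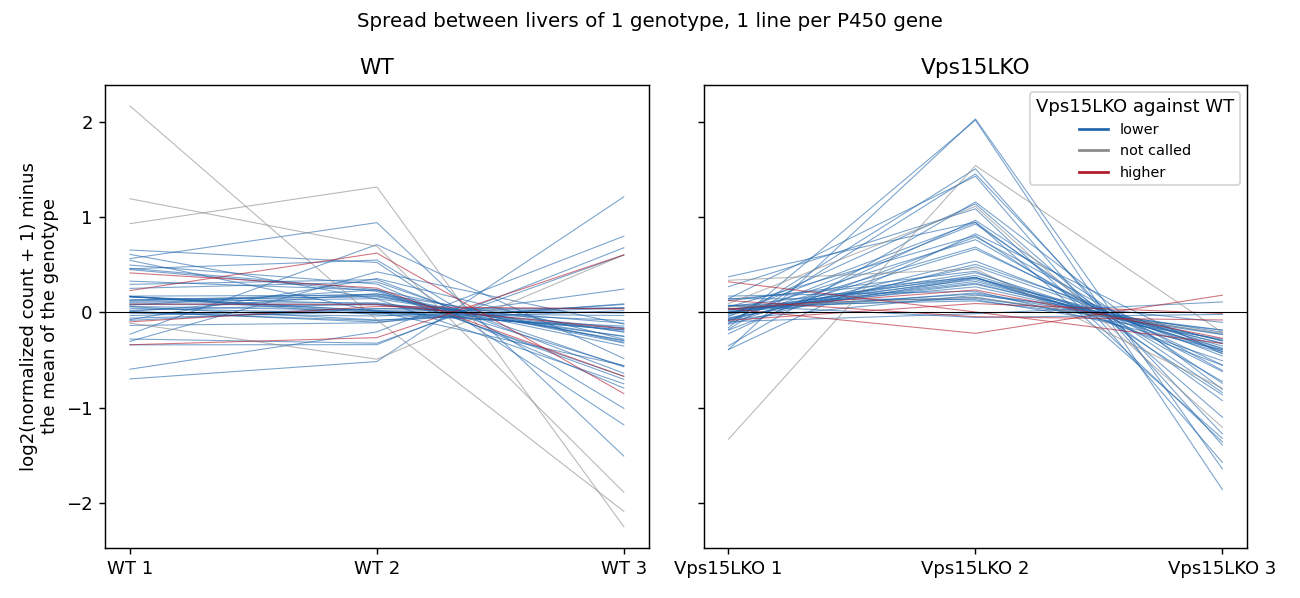
Deviation of each liver from the mean of its genotype (y axis, log2(normalized count + 1)) for the 52 tested P450 genes whose mean reached 100, with 1 line per gene joining its 3 livers and colours for the call in Vps15LKO against WT. In Vps15LKO most lines peak at liver 2 and are lowest at liver 3, whereas in WT the lines part at liver 3 in both directions.

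Partners and regulators of the P450 enzymes were lower in part. Of the 6 redox partners, 5 were lower (Cyb5a, Cyb5b, Cyb5r3, Pgrmc1 and Pgrmc2, from -1.70 to -0.93 on the log2 scale), 3 of them also when libraries were scaled to the same total of reads. Por, the oxidoreductase that supplies all these enzymes with electrons, had 8011, 10459.9 and 4796 normalized counts in WT and 5283, 5262 and 4916 in Vps15LKO and was not called (log2 fold change -0.52 ± 0.25, adjusted p = 0.0944), with overlapping groups and a difference of 0.21 when scaled to the same total of reads. Among 10 genes of heme supply and breakdown, 7 were lower, such as Cpox (-1.49) and Alad (-1.06) of heme synthesis, and Hmox1, which degrades heme, was higher (log2 fold change 1.62 ± 0.12, adjusted p = 9.1e-06). Alas1, the rate-limiting enzyme of heme synthesis, was not called (log2 fold change 0.05 ± 0.22, adjusted p = 0.857). With libraries scaled to the same total of reads, 2 of the heme genes were lower and 4 higher.

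Of 13 ligand-sensing regulators tested, 8 were lower and 4 higher (5 and 6 when scaled to the same total of reads). Over all genes tested, 33% were lower and 33.5% higher, or 11.1% and 66.7% on the other scale, and the counts of the gene lists here are to be read against these shares. CAR, encoded by Nr1i3, had 4795, 4287 and 2887 normalized counts in WT and 966, 1075 and 683 in Vps15LKO (log2 fold change -2.13 ± 0.22, adjusted p = 5.23e-05). PXR, encoded by Nr1i2, was lower by less (log2 fold change -0.71 ± 0.13, adjusted p = 0.00135), and this difference was 0.01 when scaled to the same total of reads. Their common partner Rxra was lower (-1.42) and Pparg was higher (1.203). Of 12 targets of CAR and PXR outside the P450 genes, 3 were lower, such as Ces2a (-2.81), and 6 higher, such as the glutathione transferase Gstm3 (4.04) and the transporter Abcc4 (4.74), and these counts were 3 and 9 when scaled to the same total of reads. Without Sult2a1, which entered the test through Vps15LKO alone, 5 of 11 were higher. Of 15 liver-enriched and growth hormone dependent factors, 9 were lower and 1, Cux2, was higher. Without Cux2, which entered the test through Vps15LKO alone, 9 of 14 were lower and 0 higher. Scaled to the same total of reads, 5 of the 15 were lower and 4 higher. Cebpa was at -1.94, Hnf4a at -1.38 and the clock-controlled factors Hlf at -1.89, Tef at -1.35 and Dbp at -1.29. Of the 10 genes of other P450 families that were tested, 8 were lower, such as Cyp7b1 (-5.05) and Cyp8b1 (-4.10) of bile acid synthesis, and 2 were higher, Cyp21a1 and Cyp20a1 (0.60), or 6 and 2 when scaled to the same total of reads. Cyp21a1 of steroid synthesis had 1.33, 1.25 and 0 normalized counts in WT and 139.7, 135 and 164 in Vps15LKO. It and Cyp46a1 entered the test through 1 genotype alone, and without them 7 of 8 were lower and 1 higher.

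Few of the P450 promoter windows, from 250 bases before to 50 bases after the annotated start, held the motifs searched. RefSeq gave 72 promoter windows for 65 of the 80 members, searched on both strands. The E-box CACGTG, the element bound by Bmal1 and Clock, was present in 2 windows (2.78%), those of Cyp2j6 and Cyp4v3, against 7.15% of all 32851 promoter windows. The D-box TTATGTAA was in 0 windows, against 0.938% of all. The core of the xenobiotic response element, GCGTG, was in 14 windows (19.4%), among them those of Cyp1a1 and Cyp1b1, against 32.4% of all. The antioxidant response element TGACNNNGC was in 6 (8.33% against 12.4%), and the direct repeat 1 of nuclear receptors, AGGTCA repeated after 1 base, in 0 (0.0396% of all). None of these motifs was found in the 4 Cyp2a windows printed above. A match, or the lack of one, describes these letters in this window only, and elements further from the start were not searched.

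The remaining 19 members were not tested. Of these, 12 had 3 reads or fewer in every liver, and 5 of the 12 (Cyp2c66, Cyp2j7, Cyp2j11, Cyp2j12 and Cyp4a29) had 0 reads in all 6, which allows up to 3 reads, or 2.12 to 4.04 normalized counts, per liver. The other 7 (Cyp2b10, Cyp2b13, Cyp2b19, Cyp2c65, Cyp3a57, Cyp4f39 and Cyp4f40) had more reads but fell short of the filter. Cyp4f39, an enzyme of skin lipid synthesis, had the most among them, with 12, 9 and 5 reads in WT and 24, 30 and 23 in Vps15LKO. This limit covers counting error only.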

How the data were processed

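RNA-seq values of 3 WT and 3 Vps15LKO mouse livers were analysed. The authors used SOAPnuke to clean the reads, HISAT2 to align them to GRCm38/mm10, featureCounts (Subread) to count them and DESeq2 size factors to scale the counts. Tool versions and the strand and multi-mapping settings are not given in the sources used here. The deposited values are these normalized counts, a signal per gene and library. At a tolerance of 0.01, 100% of them are whole reads times 1 factor per library, so the reads (16137093 to 18110223 per library) were recovered, and fold changes depend on the size factors. The groups come from the sample titles.

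Of the 56305 Ensembl identifiers, 55227 matched GENCODE M21. The values were tested as log2(normalized count + 1) with limma 3.58.1 (trend, R 4.3.3) on genes with at least 20 in at least 3 libraries. The test was also run on simulated counts in which few genes changed and all genes had the same relative spread beyond counting error. That check does not cover the scaling or the spread of these livers. On the recovered reads edgeR 4.0.16 (quasi-likelihood) called 4822 genes lower and 5383 higher, and DESeq2 1.42.0, voom, other scalings, filters, pseudocounts and libraries left out were also tried. Errors of log2 fold changes are standard errors. Shares were compared with exact permutation tests. Proteins were translated from GENCODE coding sequences and aligned with Biopython 1.88. Promoters are from RefSeq (GRCm38.p6).

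Named genes are the member of each subfamily with the most reads per kb, up to 8 of the largest rises and falls among called members that averaged 100 or more and whose groups did not overlap, and the members of the gene lists; the remaining members were named for completeness after their values were seen. The members and lists were chosen with earlier results of these data known.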

Additional observations from a re-analysis of the deposited data

How the results depend on the processing

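The counts of 46 lower and 8 higher P450 genes stayed within 41 to 47 and 8 to 9 under the pseudocounts, TMM and upper-quartile scaling, quantile normalization (45 and 8), no mean-variance trend, edgeR, DESeq2, voom and other fold minimums. Scaling to the same total of reads gave 39 and 10. A filter of at least 20 in all libraries left 41 lower and 5 higher genes, since fewer genes were tested (Cyp1a1, Cyp1b1 and Cyp4f18 dropped out among the higher ones). With no filter, Cyp2b10 was also called lower and Cyp2b13 higher. The median log2 fold change was -1.60 with no filter and -1.26 with scaling to the same total of reads. Leaving out 1 library at a time gave 42 to 47 lower genes, 8 to 9 higher genes, a median from -2.21 to -1.75 and a difference in the share of reads from -1.93 to -1.56 percentage points, against -1.70.

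The sign of single genes turned as follows, and the cause was not tested. With scaling to the same total of reads, Cyp1a2 was at 0.16, Cyp2d34 at 0.26, Cyp2j6 at 0.29 and Cyp2t4 at 0.076. Under quantile normalization, Cyp1a2 was at 0.59 and Cyp2s1 at -0.70. Leaving out 1 library at a time, Cyp2b9 ran from -0.52 (without WT replicate 3) to 1.02, and Cyp2d34 from -0.92 to 0.32 (without Vps15LKO replicate 2). When copies at least 90% identical were summed, Cyp2a22 (-1.43, with Cyp2a12) and Cyp4a31 (-3.04, with Cyp4a10 and Cyp4a32) took the sign of the more abundant copies. Without division by length, Cyp2a rose by 34.5 points of the pool in place of 39.9, and Cyp2e changed by -17.1 in place of -19.9. In the pool without Cyp2a, a setting added after the data were seen, the differences of Cyp2d (3.38 points in place of -4.13) and Cyp3a (5.73 in place of -1.59) turned, and Cyp2e changed by -13.6.

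The replicate numbers showed no pairing of the livers. The deviations of livers with the same number correlated at -0.0099, -0.0114 and 0.0485, and not every liver correlated best with its own number. The paper states that breeding aimed at litters holding both genotypes. These correlations cannot exclude a shared litter or batch, which was not tested. A fit with the replicate number as a block gave 47 lower and 8 higher genes and a median of -1.99, adding Cyp3a41b. Depth limits the 19 untested genes, and 3 livers a group keep the exact tests at p = 0.1 or above.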
